A study of Rattus norvegicus with 8 samples.

Results

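Cell cycle and DNA replication genes were examined in the outflow vein of rat arteriovenous fistulas (AVFs) wrapped with scaffolds that carried β-aminopropionitrile (BAPN) or vehicle. The set was a list of 40 gene names, matched to the gene names of the deposited count tables, of which 39 were found among 32623 genes. Ccnb2 was not among the names. By known role, 14 of the 39 genes act in DNA replication (11 in origin licensing and at the fork, 3 in nucleotide supply), 20 act in mitosis, and 5 control the passage through G1 (4 G1 cyclins and the inhibitor Cdkn1a). They are called S-phase, mitotic and G1 genes here. The rule matched names and set no threshold on a measured value.

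The AVF was made in Sprague Dawley rats of both sexes by joining the epigastric vein to the side of the femoral artery, and a bilayer electrospun scaffold of poly(lactic acid) and poly(lactic-co-glycolic acid) was placed around the vein at surgery. BAPN is a small inhibitor of lysyl oxidase, the enzyme that crosslinks collagen and elastin. In the BAPN group were 4 rats, 3 female (BAPN 1 to 3) and 1 male (BAPN 4), and in the vehicle group 4 rats, 2 female (Vehicle 1 and 2) and 2 male (Vehicle 3 and 4), with the vein taken at day 21 in every rat. Both groups carried a fistula and a scaffold, so neither an unoperated vein nor a fistula without a scaffold enters the comparison. RNA came from the whole vein, and the ages of the rats were not given in the labels.

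Total counts ran from 45039451 to 52241007 in the BAPN libraries and from 19548203 to 22442050 in the vehicle libraries, so the smallest BAPN library held 2.01 times the counts of the largest vehicle library. Depth therefore followed the groups, and its part in the results was examined by thinning every library to the smallest total. All 39 genes passed the filter on low counts, a mean normalised count of at least 100, which 11682 genes passed. Levels are CPM, the counts of a gene relative to the library total, scaled by trimmed mean of M values (TMM) factors, and are not corrected for transcript length. They compare rats within a gene, and levels of different genes are not compared. Smooth muscle markers such as Myh11 and endothelial markers such as Cdh5 had counts in all 8 libraries, as the labelled tissue requires.

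A dividing cell passes from G1, where D-type and E-type cyclins activate cyclin-dependent kinases, into S phase, where DNA is copied once, and then into mitosis. E2F transcription factors are released from the retinoblastoma protein late in G1 and switch on the replication genes. The mitotic genes are switched on later, in G2, through the MuvB complex with B-Myb and FoxM1. MuvB is known to bind cell cycle homology regions (CHR), and the factor NF-Y to bind CCAAT boxes. In a vein exposed to arterial flow, smooth muscle cells, fibroblasts, endothelial cells and infiltrating leukocytes can all divide, and the RNA of a whole vein does not show which of them did.

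The S-phase and mitotic genes differ in their promoters, and 5 of those promoters are printed because they belong to genes on which the results below turn. Each is the 250 bases before the annotated start in the RefSeq annotation of GRCr8, read 5′ to 3′ along the strand of the gene. Capitals mark matches, on either strand, to an E2F site (TTTCCCGC, TTTCGCGC, TTTGCCGC or TTTGGCGC), to a CHR (TTTGAA or TTCGAA) or to the CCAAT box (CCAAT), and neighbouring matches can overlap, as the first pair of E2F matches of Mcm5 does. Pcna and Rrm1 were the S-phase genes with a change past the test, Mcm5 is a helicase subunit with E2F sites, Cdk1 was the only mitotic gene with an E2F site in this window, and Mki67 encodes the most used proliferation antigen.
Pcna, chr3:139955821-139956070, minus strand: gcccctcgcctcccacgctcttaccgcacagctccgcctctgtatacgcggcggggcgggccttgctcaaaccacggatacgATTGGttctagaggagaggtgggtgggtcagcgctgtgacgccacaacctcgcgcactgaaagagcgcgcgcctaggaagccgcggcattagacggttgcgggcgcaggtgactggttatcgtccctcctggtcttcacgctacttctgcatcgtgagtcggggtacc
Rrm1, chr1:166235654-166235903, plus strand: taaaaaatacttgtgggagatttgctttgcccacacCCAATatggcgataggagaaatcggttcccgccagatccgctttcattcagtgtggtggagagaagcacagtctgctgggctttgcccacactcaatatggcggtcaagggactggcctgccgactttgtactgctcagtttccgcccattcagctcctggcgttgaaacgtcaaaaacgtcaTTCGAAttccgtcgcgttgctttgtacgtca
Mcm5, chr19:13488563-13488812, plus strand: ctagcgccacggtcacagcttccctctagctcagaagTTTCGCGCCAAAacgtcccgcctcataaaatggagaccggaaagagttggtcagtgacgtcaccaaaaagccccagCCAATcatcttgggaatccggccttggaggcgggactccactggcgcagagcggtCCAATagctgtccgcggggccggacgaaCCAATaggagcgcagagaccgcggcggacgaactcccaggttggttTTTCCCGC
Cdk1, chr20:19265043-19265292, plus strand: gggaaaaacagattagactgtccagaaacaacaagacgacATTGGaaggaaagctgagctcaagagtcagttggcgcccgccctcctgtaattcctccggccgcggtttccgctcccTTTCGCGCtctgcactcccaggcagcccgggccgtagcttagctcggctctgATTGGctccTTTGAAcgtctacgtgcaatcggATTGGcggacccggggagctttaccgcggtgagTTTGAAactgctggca
Mki67, chr1:199952594-199952843, minus strand: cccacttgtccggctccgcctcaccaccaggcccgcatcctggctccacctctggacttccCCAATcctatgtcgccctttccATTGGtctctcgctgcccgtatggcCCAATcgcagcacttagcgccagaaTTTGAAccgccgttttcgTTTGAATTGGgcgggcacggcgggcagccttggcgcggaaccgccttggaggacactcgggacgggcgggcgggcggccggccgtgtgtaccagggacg

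Over the longer window of 300 bases that ends 50 bases after the start, 29 of the 39 genes had a promoter in the reference table. An E2F site was present in 7 of 11 S-phase promoters (63.6%), those of Mcm2, Mcm3, Mcm5, Mcm6, Mcm7, Cdt1 and Tyms, and in 1 of 16 mitotic promoters (6.25%), that of Cdk1. The share over all 33469 windows of this length in the table was 2.14%. A CHR was found in 3 of 11 S-phase promoters (27.3%), in 10 of 16 mitotic promoters (62.5%) and in 19.7% of all windows. CCAAT boxes were present in 8 of 11 S-phase promoters and 13 of 16 mitotic promoters, against 37.5% of all windows. The pattern is one of E2F sites in the S-phase genes and of CHRs in the mitotic genes, with CCAAT boxes in most of both. Neither of the 2 G1 promoters in the table, those of Ccne1 and Cdkn1a, held any of the 3 motifs. A match of letters is not a bound site, and the absence of an E2F match from the windows of Pcna and Rrm1 says only that those exact letters do not occur there.

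**Figure D1:**
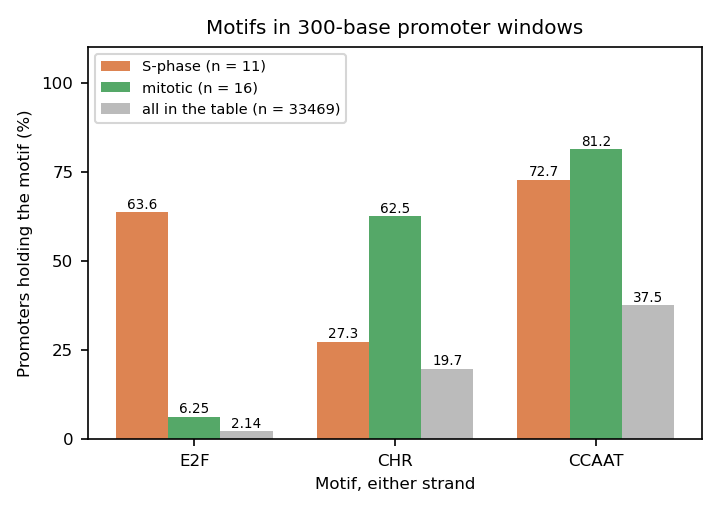
Share (%) of 300-base promoter windows that hold an E2F, CHR or CCAAT match on either strand, for S-phase genes (n = 11), mitotic genes (n = 16) and all windows in the RefSeq GRCr8 table (n = 33469). E2F matches stand at 63.6% in the S-phase genes and 6.25% in the mitotic genes, and CHR matches at 27.3% and 62.5%.

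The question for the cell cycle genes was whether their RNA differed between BAPN-treated and vehicle AVFs at day 21, and whether S-phase and mitotic genes did so alike. Few of them passed the test. By the quasi-likelihood test of edgeR, adjusted over all 11682 genes by Benjamini-Hochberg, 3 of the 39 had an adjusted p under 0.05. Pcna, the sliding clamp of the replication fork, was 1.58-fold higher with BAPN. Rrm1, the large subunit of ribonucleotide reductase, was 1.34-fold higher. Ccnd2, which encodes cyclin D2, was 2.11-fold lower. None of the 20 mitotic genes was called in edgeR, where 7 had an unadjusted p under 0.05, against 35.8% of all tested genes. In RNA from a whole vein, more or fewer cells of a type and more or less RNA per cell cannot be told apart. With every library thinned to the smallest total, Pcna, Rrm1 and Ccnd2 were again called (edgeR adjusted p = 0.0159, 0.0498 and 0.0187).

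The share of the 39 genes that were called was 7.69%, against 16.8% of all tested genes. By direction, 2 of the 39 were called higher against a background of 7.5%, and 1 was called lower against 9.25%. Groups that did not overlap gave a like picture. All 4 BAPN rats lay above all 4 vehicle rats for 5 genes (Ccne2, Pcna, Rrm1, Aurka and Birc5), or 12.8% against 12.7% of all tested genes, and below them for 1 gene (Ccnd2), or 2.56% against 11.9%. In the exact two-sided permutation test of a single gene, these 6 genes had p = 0.0286, the smallest value that 4 rats against 4 can give. DESeq2 on the same genes called 7 of the 39 (Pcna, Rrm1, Ccne2, Aurka and Bub1 higher, Ccnd2 and Aurkb lower) and 27.4% of all tested genes. At an unadjusted p under 0.05 in edgeR, 11 of the 39 genes (28.2%) passed, against 35.8% of all tested genes. The contrast in the shares called depended on the fit. With sex as a covariate, edgeR called 3 of the 39 genes and 7.96% of all tested genes.

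The fitted fold changes leaned to one side. On the log2 scale they were above 0 for 33 of the 39 genes (84.6%), with a median of 0.34, whereas 51.6% of all tested genes were above 0 and their median was 0.02. Most of the 39 genes did not pass the test, and in most of them the groups overlapped. Because the list was drawn up with results of these data known, no test of the list as a whole was made.

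**Figure D2:**
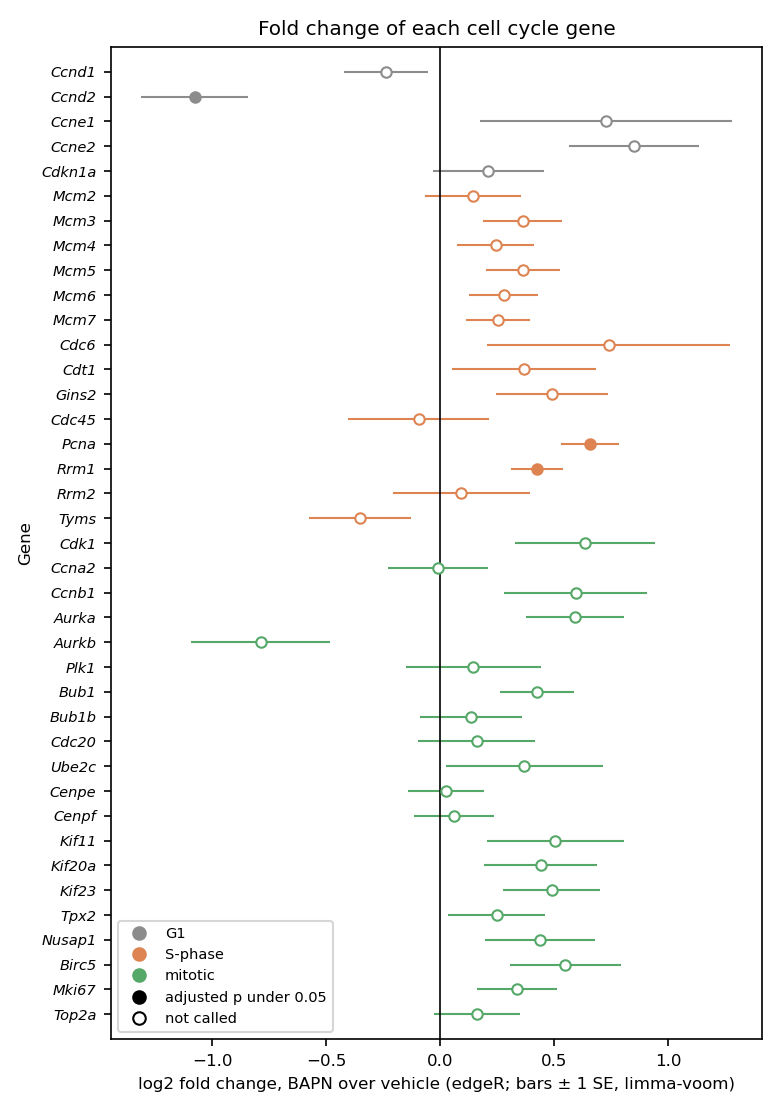
Log2 fold change (BAPN over vehicle, edgeR, n = 4 rats a group) of the 39 genes, with bars of ± 1 standard error (SE) from limma-voom and colours for G1, S-phase and mitotic genes. Filled points mark the 3 genes with an adjusted p under 0.05, Pcna at 0.66, Rrm1 at 0.43 and Ccnd2 at -1.08, and 33 of the 39 points lie above 0.

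Among the G1 cyclins, the D-type cyclin gene Ccnd2 fell and the others did not pass the test. D-type cyclins bind Cdk4 and Cdk6 and begin the phosphorylation of the retinoblastoma protein. Ccnd2 stood at 37.8, 36.7, 19.6 and 26.9 CPM in BAPN 1 to 4 and at 64.7, 53.1, 51.7 and 86.0 CPM in Vehicle 1 to 4. The highest BAPN rat was below the lowest vehicle rat, and Vehicle 4 was the highest of all. The means were 30.3 ± 8.64 CPM under BAPN and 63.9 ± 15.9 CPM under vehicle (SD, n = 4 per group), a log2 fold change of -1.08 (SE 0.24, 95% interval -1.62 to -0.56, edgeR adjusted p = 0.0216). The call was lost without BAPN 4 (adjusted p = 0.0547), without Vehicle 1 (0.0583) and among the 5 females (0.130), with log2 fold changes of -1.04, -1.07 and -0.91.

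Ccnd1, which encodes cyclin D1, was at 176, 179, 190 and 266 CPM in the BAPN rats and at 255.5, 290, 227 and 182 CPM in the vehicle rats. BAPN 4 stood with the vehicle rats and Vehicle 4 with the BAPN rats, and the groups overlapped. Its log2 fold change was -0.24 (SE 0.18, edgeR adjusted p = 0.382). It was -0.59 among the 5 females, -0.40 without BAPN 4 and -0.13 without Vehicle 2. The 95% interval of Ccnd1 ran from -0.65 to 0.18.

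The E-type cyclins, which activate Cdk2 at the entry into S phase, had fitted values above 0. Ccne2 was at 5.79, 5.56, 7.22 and 5.89 CPM under BAPN and at 2.62, 3.95, 2.06 and 4.92 CPM under vehicle. Its groups did not overlap, but the lowest BAPN rat and the highest vehicle rat were close. Ccne2 had a log2 fold change of 0.85 (SE 0.28), which missed the threshold in edgeR (adjusted p = 0.0744) and passed in DESeq2 (0.0253). Ccne1 was at 5.81, 6.82, 7.84 and 3.74 CPM under BAPN and at 4.49, 4.35, 0.716 and 5.06 CPM under vehicle. Vehicle 3 was far below every other rat and BAPN 4 lay among the vehicle rats, and the log2 fold change of 0.73 carried an SE of 0.55 (edgeR adjusted p = 0.321) and was 0.38 without Vehicle 3.

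Cdkn1a encodes p21, the inhibitor of cyclin-dependent kinases that p53 induces. Its levels were 138, 122, 146 and 137 CPM in the BAPN rats and 118, 166, 117 and 68.4 CPM in the vehicle rats. The BAPN rats were close together, while Vehicle 2 was the highest and Vehicle 4 the lowest of the 8. The means, 136 ± 10.3 and 117 ± 39.7 CPM (SD, n = 4 per group), gave a log2 fold change of 0.21 (SE 0.24, edgeR adjusted p = 0.524). It was 0.023 without Vehicle 4 and 0.42 without Vehicle 2.

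**Figure D3:**
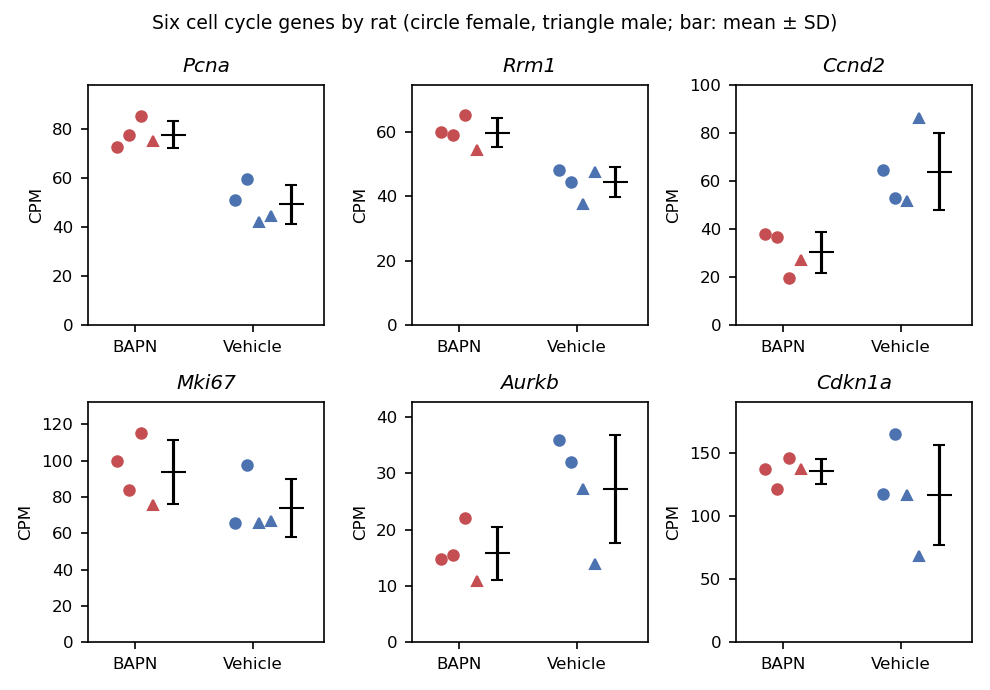
Levels (CPM) of Pcna, Rrm1, Ccnd2, Mki67, Aurkb and Cdkn1a in each rat, with circles for females, triangles for males and bars for the mean ± SD of each group (n = 4). The groups are separate for Pcna, Rrm1 and Ccnd2 and overlap for Mki67, where Vehicle 2 is at 97.9 CPM, for Aurkb, where Vehicle 4 is at 13.9 CPM, and for Cdkn1a, where the BAPN rats (122 to 146 CPM) lie within the vehicle range (68.4 to 166 CPM).

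Of the 11 genes that license origins or work at the fork, Pcna rose and no other passed the test. Pcna encodes the ring that holds DNA polymerases on the template, and it also serves in DNA repair. It was at 72.7, 77.4, 85.5 and 75.2 CPM in BAPN 1 to 4 and at 51.0, 59.5, 42.1 and 44.5 CPM in Vehicle 1 to 4. No vehicle rat reached the lowest BAPN rat, and Vehicle 2 came nearest. The means were 77.7 ± 5.56 and 49.3 ± 7.79 CPM (SD, n = 4 per group), and the log2 fold change was 0.66 (SE 0.13, 95% interval 0.39 to 0.96, edgeR adjusted p = 0.0157). Pcna was called with any 1 of the 8 rats left out, at adjusted p from 0.00906 to 0.0478. Among the 5 females the adjusted p was 0.113, with a log2 fold change of 0.51.

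The helicase subunits Mcm2 to Mcm7, which are loaded onto origins in G1 and unwind DNA in S phase, had log2 fold changes from 0.15 to 0.36, and none passed the test. Mcm5 was at 32.9, 25.1, 30.8 and 24.3 CPM under BAPN and at 20.1, 28.1, 19.9 and 19.8 CPM under vehicle. Vehicle 2 lay among the BAPN rats, and the other 3 vehicle rats were below all of them. For Mcm5 the log2 fold change was 0.36 (SE 0.16, edgeR adjusted p = 0.140), and without Vehicle 2 it was 0.50 (adjusted p = 0.0438).

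Mcm3 showed a similar spread, at 42.1, 42.3, 45.7 and 31.6 CPM under BAPN and 27.8, 39.5, 33.6 and 24.9 CPM under vehicle. Its log2 fold change was 0.36 (SE 0.17, edgeR adjusted p = 0.163), and BAPN 4 lay among the vehicle rats. For Mcm2 the levels were 44.5, 35.2, 39.8 and 30.8 CPM under BAPN and 37.7, 36.1, 21.1 and 41.0 CPM under vehicle. These groups were mixed, with only Vehicle 3 set apart from the rest, and the log2 fold change was 0.15 (SE 0.21, edgeR adjusted p = 0.637). Mcm4, Mcm6 and Mcm7 had log2 fold changes of 0.24, 0.28 and 0.25 and adjusted p of 0.340, 0.201 and 0.195. Mcm4 was at 0.12 without Vehicle 3 and 0.41 without Vehicle 4.

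The remaining fork and licensing genes did not pass the test. Cdc6 and Cdt1, which load the helicase, had log2 fold changes of 0.74 and 0.37 with SEs of 0.53 and 0.32. With a rat left out these ran from 0.43 (without Vehicle 3) to 1.16 (without Vehicle 2) for Cdc6 and from 0.17 to 0.52 for Cdt1. Gins2 and Cdc45 complete the active helicase, and their log2 fold changes were 0.49 (0.20 among females) and -0.09. The edgeR adjusted p of these genes ran from 0.203 for Gins2 to 0.846 for Cdc45. For Gins2 the count may include reads of the overlapping gene Gse1, since the strand setting of the counting was not given.

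In nucleotide supply, Rrm1 rose while Rrm2 and Tyms did not pass the test. Rrm1 and Rrm2 encode the large and small subunits of ribonucleotide reductase, which makes deoxyribonucleotides, and Tyms encodes thymidylate synthase. Rrm1 was at 59.9, 59.1, 65.2 and 54.2 CPM in the BAPN rats and at 48.1, 44.2, 37.7 and 47.6 CPM in the vehicle rats. The groups were separate and narrow, with means of 59.6 ± 4.50 and 44.4 ± 4.78 CPM (SD, n = 4 per group). The log2 fold change was 0.43 (SE 0.11, 95% interval 0.18 to 0.69, edgeR adjusted p = 0.0340). This call was near the threshold, and it was lost in each of the 8 fits that left out a rat (adjusted p 0.0512 to 0.0861), with sex as a covariate (0.0704), with scaling by total counts (0.0575) and among females (0.134). Its log2 fold change was then 0.35 to 0.47, 0.39, 0.37 and 0.41.

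Its partner Rrm2 was at 27.4, 23.9, 15.4 and 14.4 CPM under BAPN and 16.5, 27.3, 11.7 and 20.5 CPM under vehicle. Rats of both groups were high and low, and the log2 fold change was 0.09 (SE 0.30, edgeR adjusted p = 0.839). Tyms was at 9.62, 8.84, 7.24 and 5.47 CPM under BAPN and 11.2, 9.39, 8.63 and 10.6 CPM under vehicle. Its fitted value lay below 0, at -0.35 (SE 0.22, edgeR adjusted p = 0.257, and -0.22 without BAPN 4), with Vehicle 2 and Vehicle 3 inside the BAPN range. The 2 subunits of ribonucleotide reductase therefore did not have the same profile over the rats, although no test of the difference between them was made.

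Among the 8 mitotic kinases and cyclins, 6 had fitted values above 0 and 2, Aurkb and Ccna2, below 0. The edgeR test called none of the 8. Of these genes 5 had an unadjusted p under 0.05, against 35.8% of all tested genes. DESeq2 called 3 of the 8, against 27.4% of all tested genes. Aurka encodes the Aurora kinase of the spindle poles. It was at 12.8, 9.60, 14.9 and 10.6 CPM in the BAPN rats and at 6.93, 7.36, 9.26 and 8.17 CPM in the vehicle rats. The groups did not overlap, although BAPN 2 and Vehicle 3 were close. Aurka had a log2 fold change of 0.59 (SE 0.22, edgeR adjusted p = 0.0598, DESeq2 adjusted p = 0.0211). Aurka overlaps Fam210b in the GRCr8 annotation.

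Aurkb encodes the Aurora kinase of the chromosomal passenger complex, which acts with survivin at the centromere and in cytokinesis. It was at 14.7, 15.4, 22.0 and 10.9 CPM under BAPN and at 35.9, 31.98, 27.1 and 13.9 CPM under vehicle. The vehicle rats 1 to 3 were above every BAPN rat, and Vehicle 4 was below 3 of them. The means were 15.8 ± 4.63 and 27.2 ± 9.55 CPM (SD, n = 4 per group), with a log2 fold change of -0.79 (SE 0.30, edgeR adjusted p = 0.0950). With sex as a covariate it was -0.95 (adjusted p = 0.0475), without Vehicle 4 it was -1.01 (0.0354), and DESeq2 gave an adjusted p of 0.0436.

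Birc5, which encodes survivin, did not share the profile of Aurkb. Its levels were 7.18, 6.15, 10.6 and 6.89 CPM under BAPN and 5.29, 5.19, 5.47 and 5.06 CPM under vehicle. All BAPN rats were above all vehicle rats, and BAPN 3 stood well above the rest. BAPN over vehicle, the log2 fold change was 0.55 (SE 0.24, edgeR adjusted p = 0.105), and 0.36 without BAPN 3.

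Bub1, a kinase of the spindle checkpoint, was at 20.5, 20.8, 19.6 and 15.3 CPM under BAPN and at 13.0, 12.7, 14.9 and 16.1 CPM under vehicle. Vehicle 4 exceeded BAPN 4, both of them male, and the other 6 rats were separated by group. Its log2 fold change was 0.43 (SE 0.16, edgeR adjusted p = 0.0780, DESeq2 adjusted p = 0.0452), and 0.66 among females. The related checkpoint kinase Bub1b had a log2 fold change of 0.14 (edgeR adjusted p = 0.682), and from 0.022 (without BAPN 1) to 0.29 (without Vehicle 2) with a rat left out.

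Cdk1, the kinase that drives mitosis, was at 17.7, 15.2, 24.8 and 10.6 CPM under BAPN and at 8.90, 14.3, 10.5 and 10.2 CPM under vehicle. The female BAPN rats were above every vehicle rat, and BAPN 4 was among them. The log2 fold change was 0.64 (SE 0.31, edgeR adjusted p = 0.116), and 0.40 without BAPN 3. Of its cyclin partners, Ccnb1 had a log2 fold change of 0.59 (adjusted p = 0.126, and 0.94 among females) and Ccna2 one of -0.01 (adjusted p = 0.982). The polo kinase gene Plk1 was at 0.15 on the same scale (adjusted p = 0.730).

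The anaphase-promoting complex is served by Cdc20, its activator, and by Ube2c, its ubiquitin-conjugating enzyme. Ube2c was at 14.02, 13.1, 18.3 and 8.08 CPM under BAPN and at 7.26, 16.6, 7.07 and 10.5 CPM under vehicle. For Cdc20 the levels were 16.2, 13.1, 13.9 and 8.81 CPM under BAPN and 8.57, 14.7, 9.93 and 13.4 CPM under vehicle. In both genes BAPN 4 was the lowest BAPN rat and Vehicle 2 the highest vehicle rat. Neither passed the test, with log2 fold changes of 0.37 (SE 0.34) and 0.16 (SE 0.26). With a rat left out they ran from 0.18 to 0.69 for Ube2c and from 0.036 to 0.30 for Cdc20, with the highest values without Vehicle 2 and without BAPN 4.

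The 8 genes of the spindle, kinetochore and cytokinesis all had fitted values above 0, from 0.03 for Cenpe to 0.55 for Birc5. None was called in edgeR or DESeq2, and 2 had an unadjusted p under 0.05, against 35.8% of all tested genes. Kif23, a motor of the central spindle, was at 15.0, 15.8, 16.7 and 10.2 CPM under BAPN and at 9.36, 10.8, 9.64 and 11.2 CPM under vehicle. BAPN 4 lay among the vehicle rats and BAPN 1 to 3 above them. The log2 fold change was 0.49 (SE 0.21, edgeR adjusted p = 0.0867), and the adjusted p was 0.0487 without BAPN 4.

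Nusap1, which binds spindle microtubules, was at 18.0, 16.4, 16.2 and 10.7 CPM under BAPN and at 7.82, 12.3, 13.2 and 11.9 CPM under vehicle. Again BAPN 4 was the only BAPN rat inside the vehicle range, and the log2 fold change was 0.44 (SE 0.24, edgeR adjusted p = 0.181). The motors Kif11 and Kif20a were at 0.51 and 0.44, the spindle assembly factor Tpx2 at 0.25, and the kinetochore gene Cenpf at 0.06 on the log2 scale, with adjusted p from 0.203 to 0.814. Kif20a was at 0.26 without Vehicle 3 and 0.66 without Vehicle 2, Tpx2 at 0.11 without Vehicle 1 and 0.40 without Vehicle 2, and Nusap1 at 0.75 among females.

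Mki67 and Top2a act on mitotic chromosomes, Ki-67 as their surface coat and topoisomerase II alpha in untangling them. Mki67 was at 99.6, 83.9, 115 and 75.9 CPM under BAPN and at 65.9, 97.9, 65.9 and 66.7 CPM under vehicle. Vehicle 2 exceeded 2 of the BAPN rats, and the other vehicle rats were close together and below all BAPN rats. The means of 93.7 ± 17.5 and 74.1 ± 15.9 CPM (SD, n = 4 per group) gave a log2 fold change of 0.34 (SE 0.18, edgeR adjusted p = 0.196). Top2a was at 45.8, 38.1, 40.5 and 26.9 CPM under BAPN and at 30.9, 40.9, 28.4 and 35.1 CPM under vehicle, and its groups were mixed. Top2a had a log2 fold change of 0.16 (SE 0.19, edgeR adjusted p = 0.540). With a rat left out it ran from 0.056 (without BAPN 1) to 0.28 (without BAPN 4). That of Mki67 ran from 0.22 (without BAPN 3) to 0.50 (without Vehicle 2).

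**Figure D4:**
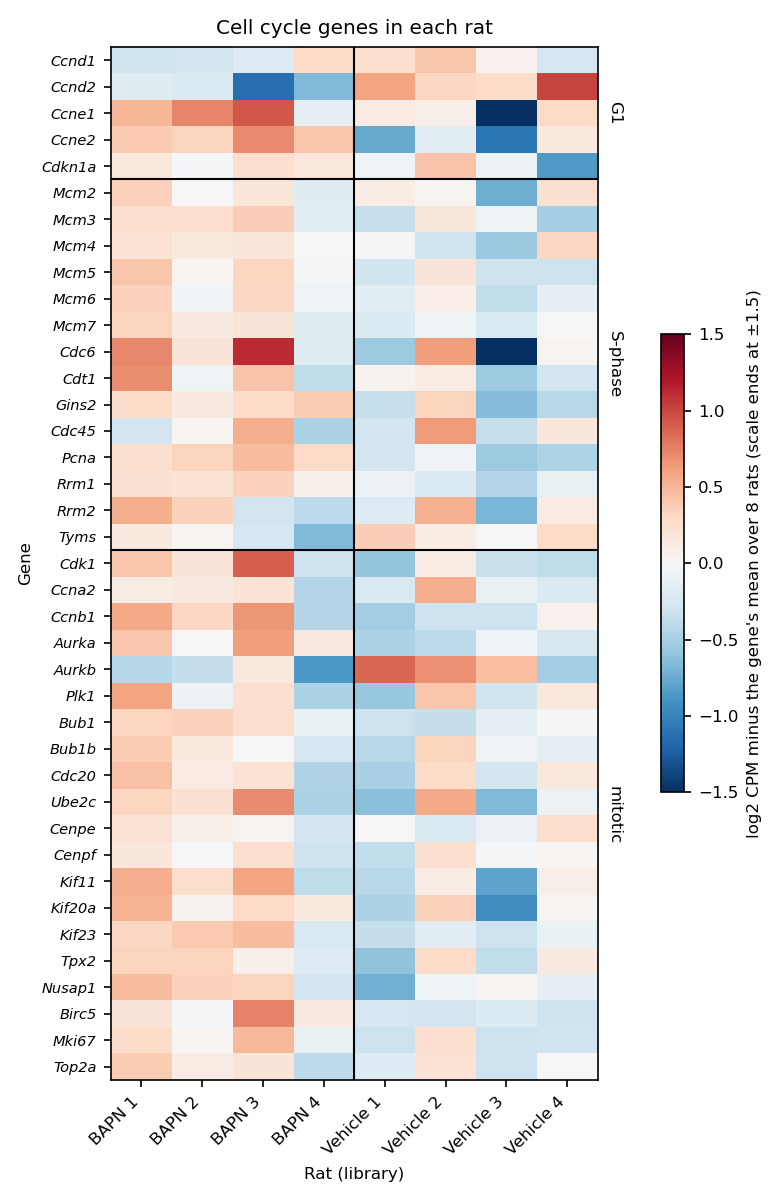
Log2 CPM of the 39 genes in each rat as a difference from the mean of the gene over the 8 rats, with colours from -1.5 to 1.5, genes grouped as G1, S-phase and mitotic, and rats by group. BAPN 1 and BAPN 3 are above the mean for most S-phase and mitotic genes, BAPN 4 is the lowest BAPN rat for 17 of the 20 mitotic genes, and Vehicle 2 is the highest vehicle rat for 12 of them.

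S-phase and mitotic genes were then set against each other. The 2 classes had nearly the same median log2 fold change, 0.32 over 14 S-phase genes (range -0.35 to 0.74) and 0.36 over 20 mitotic genes (range -0.79 to 0.64), a difference of -0.03. Values above 0 were found for 12 of the 14 S-phase genes, all but Cdc45 and Tyms, and for 18 of the 20 mitotic genes, all but Aurkb and Ccna2. In edgeR 2 of 14 S-phase genes (14.3%) and 0 of 20 mitotic genes were called, against 16.8% of all tested genes. An unadjusted p under 0.05 was found for 7 of the 20, against 35.8% of all tested genes. DESeq2 called 2 of the 14, both higher, and 3 of the 20, 2 higher and 1 lower, against 27.4% of all tested genes. No test of the difference between the classes was made.

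The level of each class in each rat was taken as the mean log2 CPM over its genes. For the S-phase genes the BAPN rats 1 to 4 had 4.45, 4.25, 4.43 and 3.99 and the vehicle rats 1 to 4 had 3.97, 4.29, 3.60 and 4.06. For the mitotic genes it was 4.23, 4.03, 4.28 and 3.63 in the BAPN rats and 3.55, 4.03, 3.65 and 3.83 in the vehicle rats. In both classes BAPN 1 and BAPN 3 were the highest of the 8 rats, Vehicle 2 stood beside BAPN 2, and BAPN 4 was within the vehicle range. The groups overlapped in both, with differences of means of 0.30 (4.28 ± 0.21 against 3.98 ± 0.28) for the S-phase genes and 0.28 (4.04 ± 0.30 against 3.77 ± 0.21) for the mitotic genes (SD, n = 4 per group).

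A rat that was high for one class was in most cases high for the other, so the balance of the classes varied less than their levels in the BAPN group. The S-phase mean minus the mitotic mean was 0.22, 0.22, 0.15 and 0.37 in the BAPN rats and 0.42, 0.25, -0.04 and 0.23 in the vehicle rats. The widest values, 0.42 in Vehicle 1 and -0.04 in Vehicle 3, were both in the vehicle group and enclosed all 4 BAPN rats. The group means of this balance were 0.24 ± 0.09 and 0.21 ± 0.19 (SD, n = 4 per group), which differ by less than the spread between rats. Vehicle 3 had the lowest S-phase level of the 8 rats and was the lowest vehicle rat for 12 of the 14 S-phase genes, while Vehicle 1 was the lowest vehicle rat for 12 of the 20 mitotic genes.

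**Figure D5:**
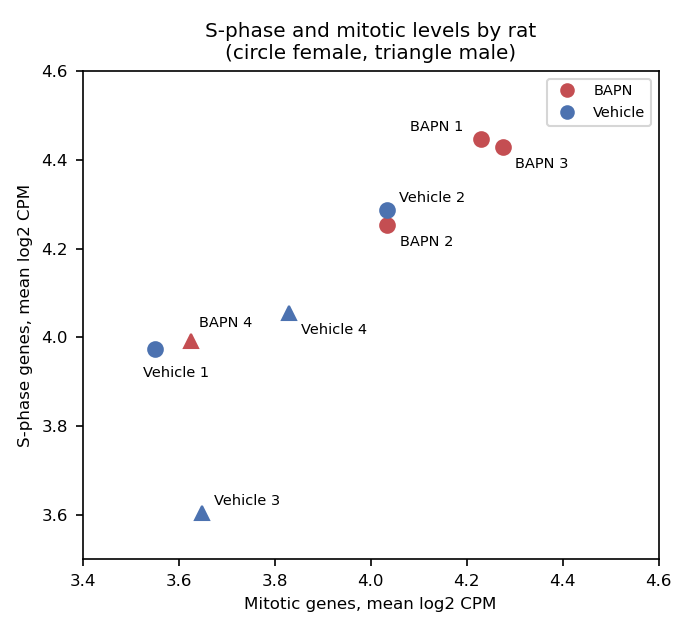
Mean log2 CPM of the 14 S-phase genes (y axis) against that of the 20 mitotic genes (x axis) in each of the 8 rats, with circles for females and triangles for males. BAPN 1 and BAPN 3 are at the upper right, Vehicle 2 lies beside BAPN 2, and BAPN 4 (mitotic 3.63, S-phase 3.99) lies among the vehicle rats.

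Sex was not balanced between the groups, and the only BAPN male was the lowest of the BAPN rats for most of these genes. BAPN 4 was lowest in its group for 17 of 20 mitotic and 12 of 14 S-phase genes. Among females (3 against 2) the difference of means was 0.25 for the S-phase and 0.39 for the mitotic level. Among males (1 against 2) it was 0.16 and -0.11. With a single BAPN male, the male values have no replicate check on the BAPN side, and sex and rat cannot be told apart there. In edgeR's test of a sex by treatment interaction, 0 of the 39 genes had an adjusted p under 0.05 and 4 (Ccnd1, Ccnb1, Bub1 and Nusap1) had an unadjusted p under 0.05, against 0 and 1442 of all 11682 tested genes. That test rests on the 1 BAPN male. With sex as a covariate the median log2 fold changes were 0.23 for the S-phase and 0.22 for the mitotic genes. Without BAPN 4 they were 0.38 and 0.44.

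Other genes of the cell cycle, 136 of which passed the filter in 9 lists, were read from the same fit. Of these, 7 were called higher and 6 lower (9.56% in all), against 16.8% of all tested genes, and 102 of 136 had a fitted value above 0 with a median log2 fold change of 0.21. Over all tested genes, edgeR called 7.5% higher and 9.25% lower, DESeq2 called 27.4% in either direction, and 35.8% had an unadjusted p under 0.05 in edgeR. Of 42 other mitotic genes, 37 had a value above 0 (median 0.34), and none was called in edgeR, where 11 had an unadjusted p under 0.05 and DESeq2 called 7. Of 20 DNA polymerase and fork genes, 19 had a value above 0 (median 0.30), again with none called in edgeR, 6 at an unadjusted p under 0.05 and 3 called in DESeq2.

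The 15 other origin licensing and firing genes included 3 that rose (against 7.5% of all tested genes called higher) and none that fell, with 14 values above 0 and a median of 0.50. Tipin, which with Timeless holds the stalled fork together, was at 5.66 ± 1.15 CPM under BAPN and 1.64 ± 0.387 CPM under vehicle, a log2 fold change of 1.79 (SE 0.33, edgeR adjusted p = 0.00946). Orc6 and Orc5, subunits of the origin recognition complex, had log2 fold changes of 0.93 (SE 0.24, adjusted p = 0.0323) and 0.52 (SE 0.15, adjusted p = 0.0365). Tipin was called with any rat left out, and Orc5 and Orc6 each in 2 of those 8 fits. The vehicle levels of Tipin were low (1.14 to 2.08 CPM). The filter took the mean over all 8 libraries, so its higher BAPN levels helped it to pass. With no filter its edgeR adjusted p was 0.0105.

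Among 11 other kinases and their partners, Cks2, a small subunit of the cyclin-dependent kinases, was the only gene called, against 16.8% of all tested genes. It was at 12.7, 13.2, 16.7 and 10.2 CPM under BAPN and at 5.95, 6.77, 4.71 and 5.54 CPM under vehicle. The groups were separate, with a log2 fold change of 1.20 (SE 0.24, edgeR adjusted p = 0.0108), and the call held with any rat left out. The median log2 fold change of that list was 0.11.

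Inhibitors of the cyclin-dependent kinases other than Cdkn1a gave 2 decreases and no increase among 6 genes in edgeR, where 9.25% of all tested genes were called lower, with a median log2 fold change of -0.30. In DESeq2, Cdkn3, which encodes a phosphatase of Cdk2, also passed, with a value above 0 (edgeR log2 fold change 0.77, adjusted p = 0.0870 in edgeR and 0.0449 in DESeq2). Cdkn1c, which encodes p57, was at 18.0, 20.02, 13.7 and 18.8 CPM under BAPN and at 30.0, 29.4, 44.7 and 110 CPM under vehicle. All BAPN rats were below all vehicle rats, and Vehicle 4 was far above the next. The log2 fold change was -1.60 (SE 0.38, edgeR adjusted p = 0.0305), and -0.98 (adjusted p = 0.0258) without Vehicle 4. It was called in only 2 of the 8 fits with a rat left out. Cdkn2b, which encodes p15, had a log2 fold change of -0.85 (SE 0.25, adjusted p = 0.0454), and its call held in 1 of those fits.

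Against 7.5% of all tested genes called higher and 9.25% lower, 1 of the 15 retinoblastoma, E2F and DREAM complex genes rose and 1 fell. These were E2f6, a repressor of the E2F family (log2 fold change 0.51, SE 0.13, edgeR adjusted p = 0.0330), and Tfdp2, a dimer partner of E2F proteins (-0.78, SE 0.22, adjusted p = 0.0418). Each call held in 1 of the 8 fits with a rat left out. Foxm1 and Mybl2, which act in the activation of mitotic genes, were at -0.07 and 0.39 on the log2 scale, with adjusted p of 0.861 and 0.405. They were chosen for mention after their values were seen.

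Nucleotide supply and chromatin assembly genes outside the 39 gave 1 increase and 1 decrease among 11, against 7.5% and 9.25% of all tested genes. Samhd1, a hydrolase that breaks down deoxyribonucleotides and is known for its antiviral role in myeloid cells, had a log2 fold change of 0.97 (SE 0.25, edgeR adjusted p = 0.0247). It was called in 4 of the 8 fits with a rat left out (adjusted p up to 0.0700) and not with sex as a covariate (0.0516). Dck, the deoxycytidine kinase of nucleotide salvage, had one of -0.57 (SE 0.16, adjusted p = 0.0393) and was called in none of the 8 fits with a rat left out. Replication-dependent histones, whose messages lack poly(A) tails and rise in S phase, could be read for 3 of 34 genes in the files, and 0 were called in edgeR or DESeq2 or had an unadjusted p under 0.05. Their summed level was 242 to 275 CPM under BAPN and 235 to 276 CPM under vehicle.

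Among 13 p53 targets other than Cdkn1a, 1 rose and 2 fell in edgeR (23.1% called, against 16.8% of all tested genes; 1 and 3 in DESeq2), and the median was -0.09. Mdm2, the ubiquitin ligase that restrains p53, had a log2 fold change of 0.42 (SE 0.13, edgeR adjusted p = 0.0469). Zmat3 and Tp53inp1 had values of -0.86 (SE 0.25, adjusted p = 0.0464) and -1.13 (SE 0.26, adjusted p = 0.0241). With a rat left out, Mdm2 was called in 3 of 8 fits, Zmat3 in 1 and Tp53inp1 in 5. Direction thus varied within the list.

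Markers of cell types that the vein can hold moved between the groups beside the cell cycle genes. Smooth muscle markers were called lower for 4 of 7 genes (Myh11, Cnn1, Smtn and Lmod1), or 57.1%, against 9.25% of all tested genes, with a summed level of 1483 to 4225 CPM under BAPN and 3114 to 5979 CPM under vehicle. Endothelial markers were called lower for 2 of 5 (Tek and Vwf), or 40.0%, at 201 to 391 CPM against 506 to 1202 CPM, and Pecam1 was not among the names. Macrophage markers were called higher for 1 of 8 in edgeR (Aif1), or 12.5%, against 7.5% of all tested genes, and for 3 in DESeq2, at 27138 to 40830 CPM against 5372 to 22269 CPM. Most of that sum was Lyz2 (means of 31549 and 12958 CPM), while Cd14, Csf1r, Mrc1, Adgre1, Cd68 and Cd163 overlapped between the groups and Cd163 had a log2 fold change of -0.25.

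For the lists that follow, the shares over all tested genes were 7.5% called higher and 9.25% called lower in edgeR. They were 27.4% called in either direction in DESeq2 and 35.8% at an unadjusted p under 0.05 in edgeR. T cell and NK markers were called higher for 2 of 11 tested (Cd2 and Cd8a), or 18.2%, and DESeq2 called 4 higher. Their summed levels were 399 to 491 and 318 to 536 CPM, most of it Cd4 (means of 334 and 350 CPM), the only 1 of the 11 with a value below 0, and the median log2 fold change of the list was 0.85. Gzmb was at 0 in all 8 libraries. B cell and plasma cell markers were called higher for 2 of 3 tested (Cd79b and Mzb1), or 66.7%, at 7.26 to 224 and 12.2 to 38.9 CPM, with BAPN 4 the lowest of all rats. In this list Cd79a was at 0 in Vehicle 2 and Tnfrsf17 in Vehicle 4. Fibroblast markers were called for 0 of 7 in edgeR, where 4 had an unadjusted p under 0.05 and DESeq2 called 4 lower, at 23378 to 36601 and 28512 to 94753 CPM. Of the other lists, Plin1 was called lower among 4 adipocyte markers in edgeR, where 3 had an unadjusted p under 0.05, and DESeq2 called 3 lower. None was called in edgeR among 4 erythroid, 2 skeletal muscle and 5 Schwann cell markers tested, for which 0, 1 and 1 had an unadjusted p under 0.05 and DESeq2 called 0, 1 and 0. The part of any of these cell types in the levels of the cell cycle genes was not tested.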

How the data were processed

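Total RNA of the outflow vein of 8 rats was sequenced by the authors as ribosomal RNA-depleted, stranded libraries on a NextSeq500. The submitters' processing notes name bcl2fastq 2.17, Trim Galore and STAR. The counter, its strand setting and the genome build are not given in the sources used here. The authors deposited raw counts per gene, with no normalisation, 1 table per rat. Groups, sex and day came from the labels. No column belonged to another series, and every pair of replicates differed by more than sampling noise (chi-square per degree of freedom from 68.6 to 320.8). The tested genes held 99.5% to 99.7% of each library's counts, and library totals are given with the results.

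Counts were filtered at a mean normalised count of 100 (DESeq2 size factors, over all 8 libraries), scaled by TMM and tested with edgeR 4.0.16 (glmQLFit and glmQLFTest, R 4.3.3), with treatment as the only term and Benjamini-Hochberg adjustment over 11682 genes. The study's methods name DESeq with the same filter, and DESeq2 1.42.0 was run as an alternative. Standard errors and 95% intervals came from limma 3.58.1 (voom) on the same design. Levels are CPM, logged with a prior count of 2. Exact two-sided permutation tests over 70 arrangements used scipy 1.17.1. Other alternatives were other scalings and filters, thinning of every library to the smallest total, sex as a covariate, females only, a replicate block, and leaving out each rat. Both tools were run on simulated data before use, where DESeq2 recovered more of the set changes and made more false calls than edgeR. Nothing in the labels says more of the replicates than that they are separate samples, so p-values measure the spread between these samples.

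The members and lists were chosen with earlier results of these data known. Levels are given for each rat for the called members, for the 3 members of each role with the smallest p, and for Mki67, Top2a, Cdk1, Pcna, Mcm2, Ccnd1 and Cdkn1a. Of the other lists, called genes are named, at most 5 a list. In the GRCr8 annotation 8 of the 39 genes overlap another protein-coding gene (Ccne2 with Ints8, Gins2 with Gse1, Rrm2 with Cys1, Aurka with Fam210b, Plk1 with Ern2, Kif11 with Ide, Kif20a with Cdc23 and Nusap1 with Ndufaf1). How the authors' counting treated reads of overlapping genes or of near-identical copies such as pseudogenes is not given.

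Promoter windows came from RefSeq (GRCr8) and were matched by symbol. No window was used for Ccnd1, Ccnd2, Ccne2, Mcm4, Cdc6, Rrm2, Ccna2, Aurkb, Ube2c and Tpx2. Motifs were searched as exact letters on both strands.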

Additional observations from a re-analysis of the deposited data

Results flagged for a closer look

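In 6 of the 78 sets of 4 rats examined (39 genes in both groups), 1 rat lay far from the other 3 by Dixon's test. Chance alone gives such a rat in about 1 of 20 sets. Vehicle 2 was high for Mki67 (97.9 CPM, the others 65.9 to 66.7), for Mcm5 (28.1 CPM, the others 19.8 to 20.1) and for Ccna2 (21.8 CPM, the others 12.7 to 13.8). BAPN 4, the only male of its group, was high for Ccnd1 (265.7 CPM, the others 176 to 190) and low for Ccna2 (11.04 CPM, the others 16.2 to 17.2). Vehicle 3 was low for Ccne1 (0.716 CPM, the others 4.35 to 5.06).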

How the results depend on the processing

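Of the 39 genes, 2 were called higher and 1 lower. The numbers called higher were 5 with DESeq2, 1 with sex as a covariate, 1 with total counts only, and 0 among females only or with the replicate block. Those called lower were 2 with DESeq2, 2 with sex as a covariate and 0 among females only. Leaving out each rat in turn gave 1 to 2 higher and 0 to 2 lower, with none lower without BAPN 4 or Vehicle 1, and 2 lower without Vehicle 4. In the other cell cycle lists, 7 were called higher and 6 lower. DESeq2 called 19 higher, total counts only 3, sex as a covariate 2, the replicate block 2 and females only 0. Called lower were 2 with no filter, 1 with sex as a covariate, 1 with the replicate block and 0 among females only. Without 1 rat these ran from 2 (without BAPN 2 or Vehicle 1) to 13 (without Vehicle 2) higher and from 0 (without BAPN 4 or Vehicle 1) to 5 lower. Of all tested genes 89 were called among females only and 556 with the replicate block.

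The replicate numbers did not pair the rats. Deviations of same-numbered rats from their group means correlated at 0.09, -0.26, 0.27 and -0.14. With the replicate block, Pcna had an adjusted p of 0.0525, Rrm1 of 0.100 and Ccnd2 of 0.0498. The median log2 fold changes moved by less than the spread between rats under every alternative, from 0.21 to 0.39 for the S-phase genes, from 0.24 to 0.44 for the mitotic genes and from -0.11 to 0.03 for their difference when a rat was left out.

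Fitted values near 0 changed sign for Cdkn1a (-0.069 among females only), Ccna2 (0.00647 with edgeR's own low-count filter, 0.020 with no filter and 0.00780 with the replicate block), Rrm2 (-0.045 with sex as a covariate) and Cenpe (-0.018 with total counts only). With a rat left out the values crossed 0 for Mcm2 (-0.026 to 0.25), Cdc45 (-0.33 to 0.14), Rrm2 (-0.087 to 0.32), Ccna2 (-0.087 to 0.21), Plk1 (-0.051 to 0.32), Cenpe (-0.045 to 0.13) and Cenpf (-0.039 to 0.16). The cause of these changes was not tested, and some of these fits held fewer rats. With 4 rats a group and shallower vehicle libraries, small differences may not be detectable.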
